A study of Arabidopsis thaliana with 8 samples.

Results

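The transcripts described here encode cytochrome P450 enzymes of Arabidopsis thaliana, in leaves of abh1 mutant and wild-type plants sprayed with abscisic acid (ABA) or mock-treated. A probe set of the array was taken as a member if it had 1 gene symbol, made of the letters CYP, a family number of 2 or 3 digits, subfamily letters and a gene number, a form that leaves out the cyclophilins. Of the 22810 probe sets, 13513 had 1 symbol, and 22 of these met the rule, 1 for each of 22 genes. The subfamily CYP71B held 18 of them, and CYP51G2, CYP78A9, CYP79A2 and CYP84A4 were the other 4, each alone in its family. The RefSeq gene table (assembly TAIR10.1) holds 225 symbols of this form, so 9.78% of them were covered, and the rest were not analysed here. A probe set shared by CYP71B19 and CYP71B20, which cannot separate these genes, was left out, as were CYP718 and CYP71B30P, whose symbols have another form.

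Cytochrome P450s are haem-containing monooxygenases, most of them anchored in the membrane of the endoplasmic reticulum, where they receive electrons from NADPH-cytochrome P450 reductase. The family number and the subfamily letter group enzymes by similarity of sequence, and plants carry far more of them than animals do, in hormone, sterol, lignin and pigment pathways and in the synthesis of defence compounds. CYP71 is a large plant family whose characterised enzymes act mostly in specialised and defence metabolism. ABA is itself a substrate of P450s: enzymes of the CYP707A subfamily hydroxylate and so inactivate it.

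The 4 groups were abh1 plants treated with ABA, abh1 plants given the mock treatment, wild-type plants treated with ABA and wild-type plants given the mock treatment, each with 2 arrays, to which the labels give the numbers 1 and 2. The abh1 plants carry a mutation in ABH1, the gene of CBP80, the larger protein of the complex that binds the messenger RNA cap in the nucleus, and are known for their hypersensitivity to ABA. The sources used here do not give the allele. The wild type was Col-0 (Columbia). Plants of both genotypes were 4 weeks old, the ABA dose was 50 µM by spraying, and tissue was taken after 4 h. One label of the mock samples calls them untreated and another says that they were given water, so it is not settled that the ABA differences leave out an effect of spraying. The RNA on an array was a pool of 3 biological replicates, so the spread between plants is not seen. The p-values reflect array-to-array spread alone, part or all of which may be technical. In leaf tissue, fewer cells of a type and less RNA per cell cannot be told apart.

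The values are MAS5 signals on a linear scale, with no unit of molecules, so levels are compared between arrays for 1 gene and not between genes. Arrays numbered 2 had median signals over all probe sets of 180 to 216, against 131 to 160.5 for number 1. RCA, which encodes the Rubisco activase of leaves and was the 1 leaf marker of 12 that was measured, had signals of 13882 to 20232. PYK10, a beta-glucosidase gene of roots and the 1 root marker of 8 measured, had 19.4 to 82.5, and no marker of flower and pollen (0 of 8) or of seed (0 of 7) was measured. The mutated gene ABH1 itself had no probe set named in the annotation used, and its level was not analysed here.

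Of the 22 P450 genes, 10 had a mean signal of at least 115.4 over the 8 arrays, the level set for testing. This was 45.5% of them, against 60.02% of all probe sets other than controls. The 10 were CYP71B5, CYP71B6, CYP71B22, CYP71B23, CYP71B24, CYP71B26, CYP71B28, CYP71B34, CYP71B35 and CYP78A9, so 9 of 18 CYP71B genes were tested, the only CYP78 gene was tested, and the CYP51, CYP79 and CYP84 genes were not. The gene nearest above the limit was CYP71B22, with a mean signal of 144.9, and those nearest below it were CYP84A4, with 106.7, and CYP71B29, with 104.7. Differences are given as log2 of the signal plus 9.38, with the standard error (SE), from a limma fit to all 13652 probe sets kept, and were called where the Benjamini-Hochberg adjusted p was below 0.05. A second fit with the replicate number as a block is given where it changes a call, and for some differences that neither fit called. The SE of a difference between groups is from the fit without the block, also beside an adjusted p from the fit with it.

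**Figure D1:**
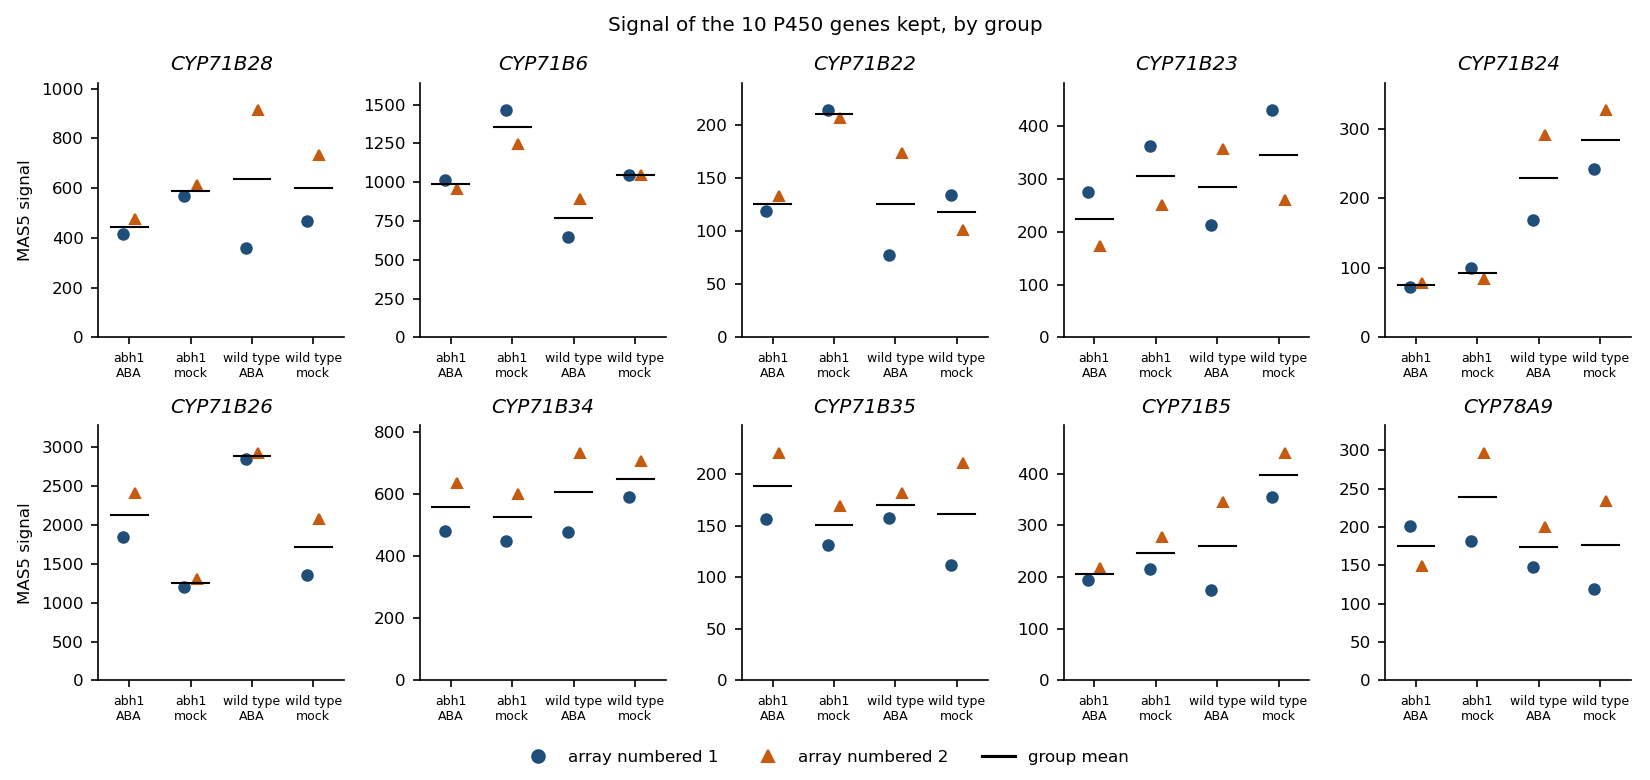
MAS5 signal (linear, from 0) of the 10 tested P450 genes on each of the 8 arrays, 1 panel per gene with its own scale; points are arrays numbered 1 and 2, short lines are group means, and the groups run from abh1 ABA on the left to wild-type mock on the right. CYP71B24 lies at 72.8 to 99.5 on the abh1 arrays, against 169 to 327 on the wild-type arrays, and CYP71B26 lies at 1846 to 2925 on the ABA arrays, against 1195 to 2076 on the mock arrays.

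The first question was which P450 transcripts differed between abh1 and wild type. CYP71B24, in a row of CYP71B genes on chromosome 3, was low in the mutant under both treatments. Its signals were 72.8 and 78.3 in abh1 with ABA, 99.5 and 84.5 in abh1 with mock, 169 and 291 in wild type with ABA, and 242 and 327 in wild type with mock. All 4 abh1 arrays lay below all 4 wild-type arrays. The abh1 arrays also lay below 115.4, the limit for testing, and the wild-type arrays above it. CYP71B24 thus passed the limit, with a mean signal of 170.5 over all arrays, through its wild-type signals. The group means were 75.6 ± 3.88 in abh1 with ABA, 92.0 ± 10.6 in abh1 with mock, 230 ± 86.4 in wild type with ABA and 285 ± 60.4 in wild type with mock (SD, n = 2 each).

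Averaged over both treatments, CYP71B24 was 2.80-fold lower in abh1, with a log2 difference of -1.48 ± 0.29 (SE). The limma adjusted p was 0.327 without the block and 0.0444 with it, so the call rests on the block. The difference was -1.16 among arrays numbered 1 and -1.81 among arrays numbered 2. Of all 13652 probe sets, 26 (0.190%) had a difference at least as low. CYP71B24 entered this set through its wild-type signals and was chosen with earlier results of these data known. Its rank, its call and its lack of overlap therefore describe it and are no independent support. The mutant's difference was -1.44 ± 0.41 with ABA and -1.52 ± 0.41 with mock, and neither was called in limma with the block (adjusted p = 0.469 with ABA, 0.183 with mock). Within either genotype CYP71B24 showed a small ABA difference, -0.25 ± 0.41 in abh1 and -0.33 ± 0.41 in wild type, and these differed by 0.08 ± 0.57.

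No other P450 gene was called between the genotypes. In the average over treatments, limma without the block called 0 of 10 tested P450 genes, against 0.0146% of all probe sets, and 1 of 10 had an unadjusted p below 0.05, against 4.7%. With the block it called 1 of 10, CYP71B24, against 0.513% of all, or 0.286% of all counting lower calls alone. CYP71B24 was also the 1 gene of 10 whose abh1 and wild-type arrays did not overlap across treatments, against 3.72% of all probe sets, 1.9% being higher and 1.82% lower in abh1. Under mock treatment alone 0 of 10 genes were called without the block (0.0% of all) and 0 of 10 with it (0.117% of all), with 1 of 10 at an unadjusted p below 0.05 without it, against 2.92%. Under ABA alone 0 of 10 were called without the block (0.0%) and 0 of 10 with it (0.00732%), with 1 of 10 at an unadjusted p below 0.05 without it, against 1.66%.

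With only 2 arrays on each side, non-overlap within a treatment was common. It held for 5 of 10 P450 genes under mock, against 28.0% of all probe sets, and for 3 of 10 under ABA, against 17.6%. On this count CYP71B24 and CYP71B26 were lower and CYP71B6 was higher in abh1 under both treatments, and under mock CYP71B5 was also lower and CYP71B22 also higher. That makes 1 of 10 higher under ABA, against 10.7% of all, and 2 of 10 lower, against 6.89%. Under mock it makes 2 of 10 higher, against 13.7%, and 3 of 10 lower, against 14.3%.

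CYP71B5, on another part of chromosome 3, had signals of 194 and 218 in abh1 with ABA, 216 and 277 in abh1 with mock, 174 and 346 in wild type with ABA, and 354 and 441 in wild type with mock. The 2 wild-type mock arrays were the highest of the 8. Its abh1 difference under mock was -0.67 ± 0.38 (limma adjusted p = 0.531 with the block), and under ABA, where the arrays overlapped, it was -0.25 ± 0.38.

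CYP71B22, next to CYP71B23 among the members on chromosome 3, had signals of 119 and 133 in abh1 with ABA, 214 and 206 in abh1 with mock, 77.7 and 174 in wild type with ABA, and 134 and 101 in wild type with mock. The 2 abh1 mock arrays were the highest of the 8. The abh1 difference was 0.80 ± 0.45 under mock (limma adjusted p = 0.631 with the block) and 0.10 ± 0.45 under ABA, and neither was called.

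The second question was which P450 transcripts differed 4 h after ABA. CYP71B26, on chromosome 3 in the same row of genes as CYP71B24, was higher with ABA in both genotypes. Its signals were 1846 and 2405 in abh1 with ABA, 1195 and 1303 in abh1 with mock, 2844 and 2925 in wild type with ABA, and 1353 and 2076 in wild type with mock. Within each genotype both ABA arrays lay above both mock arrays, while over all arrays the groups overlapped, since the wild-type mock array numbered 2 lay above the abh1 ABA array numbered 1. The group means were 2126 ± 395 in abh1 with ABA, 1249 ± 76.3 in abh1 with mock, 2885 ± 57.5 in wild type with ABA and 1714 ± 511 in wild type with mock (SD, n = 2 each).

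Averaged over genotypes, CYP71B26 was 1.70-fold higher with ABA, with a log2 difference of 0.77 ± 0.20 (SE). The limma adjusted p was 0.289 without the block and 0.0445 with it, so this call too rests on the block. The difference was 0.85 among arrays numbered 1 and 0.69 among arrays numbered 2. It was 0.75 ± 0.29 in abh1 and 0.78 ± 0.29 in wild type, with a difference between them of -0.03 ± 0.40, and neither genotype alone gave a call with the block (adjusted p = 0.241 in abh1, 0.224 in wild type, limma). Of all probe sets, 420 (3.08%) had an averaged ABA difference at least as high. CYP71B26 was 0.44 ± 0.20 lower on the log2 scale in abh1, averaged over treatments, which was not called (limma adjusted p = 0.298 with the block).

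**Figure D2:**
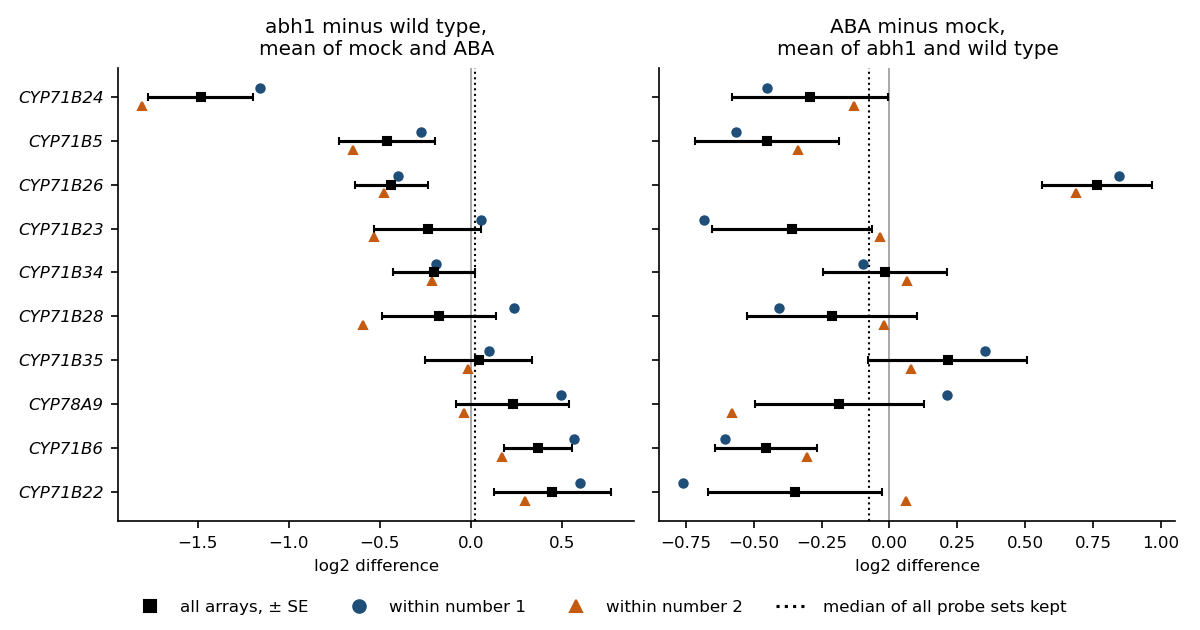
Log2 difference with its SE of each of the 10 tested P450 genes, from the limma fit without the block; coloured points give the difference within each array number, and dotted lines mark the median of all probe sets. CYP71B24 stands lowest for abh1 against wild type (-1.48 ± 0.29 averaged over treatments), and CYP71B26 highest for ABA against mock (0.77 ± 0.20 averaged over genotypes).

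CYP71B6, whose enzyme acts on indole-3-acetonitrile in the indole branch of defence metabolism, was lower on the ABA arrays. Its signals were 1017 and 955 in abh1 with ABA, 1467 and 1245 in abh1 with mock, 646 and 892 in wild type with ABA, and 1048 and 1046 in wild type with mock. All 4 ABA arrays, at 646 to 1017, lay below all 4 mock arrays, at 1046 to 1467, which held for 1 of 10 P450 genes. Arrays of ABA and mock did not overlap for 6.77% of all probe sets, 3.88% being higher and 2.89% lower with ABA. The log2 difference with ABA was -0.46 ± 0.19 averaged over genotypes, -0.45 ± 0.26 in abh1 and -0.46 ± 0.26 in wild type. It was not called (limma adjusted p = 0.563 without the block, 0.173 with it). In abh1, CYP71B6 was 0.37 ± 0.26 higher on the log2 scale under each treatment, and 0.37 ± 0.19 in the average, also without a call (limma adjusted p = 0.439 with the block).

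In the average over genotypes, limma without the block called 0 of 10 P450 genes for ABA, against 0.11% of all probe sets, with 2 of 10 at an unadjusted p below 0.05, against 8.51%. With the block it called 1 of 10, CYP71B26, against 2.31% of all, or 1.79% counting higher calls alone. In abh1 alone 0 of 10 were called without the block (0.0% of all) and 0 of 10 with it (0.125%), with 1 of 10 at an unadjusted p below 0.05 without it, against 4.22%. In wild type alone 0 of 10 were called without the block (0.0%) and 0 of 10 with it (0.00732%), with 1 of 10 at an unadjusted p below 0.05 without it, against 4.2%. ABA and mock arrays did not overlap for 5 of 10 genes in abh1, against 37.6% of all probe sets. CYP71B26 was higher, 1 of 10 against 15.8% of all, and CYP71B6, CYP71B22, CYP71B24 and CYP71B28 were lower, 4 of 10 against 21.9%. In wild type this held for 3 of 10, against 23.7% of all. CYP71B26 was higher, 1 of 10 against 10.4%, and CYP71B5 and CYP71B6 were lower, 2 of 10 against 13.3%.

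The ABA difference of no P450 gene was called as different between the genotypes. Limma gave 0 of 10 calls for this interaction both without and with the block, against 0.0% of all probe sets in each fit, and 0 of 10 at an unadjusted p below 0.05, against 0.278% without the block and 1.82% with it. CYP71B22 had the ABA differences -0.70 ± 0.45 in abh1 and 0.00 ± 0.45 in wild type, which differed by -0.71 ± 0.64. The ABA differences of CYP71B5 were -0.24 ± 0.38 in abh1 and -0.66 ± 0.38 in wild type, and they differed by 0.42 ± 0.53.

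Over all 10 tested genes, the median differences were between -0.33 and -0.07 in the 4 comparisons of single groups. The median ABA difference of the 10 was -0.33 in abh1 and -0.07 in wild type, beside -0.05 and -0.09 for all 13652 probe sets. The median abh1 difference of the 10 was -0.17 under ABA and -0.10 under mock, beside 0.04 and 0.01 for all. These medians depended on the processing and on single arrays: over all alternatives the ABA median lay between -0.48 and -0.09 in abh1 and between -0.58 and 0.20 in wild type, and the abh1 median between -0.46 and 0.22 under ABA and between -0.37 and 0.11 under mock. The ABA median in wild type was -0.58 without the wild-type ABA array numbered 2, 0.20 without the array numbered 1, and 0.02 after quantile normalisation. Averaged over genotypes, 2 of the 10 had a positive and 8 a negative ABA difference, while 41.4% of all probe sets were positive. Averaged over treatments, 4 had a positive and 6 a negative abh1 difference, while 53.7% of all were positive. By family number, all 9 tested CYP71 genes were of subfamily CYP71B, and CYP71B24 and CYP71B26, the 2 genes called with the block, were both among them.

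CYP78A9, the 1 tested gene of family CYP78, belongs to a family that promotes the growth of organs, fruits and seeds. Its signals were 201 and 150 in abh1 with ABA, 182 and 297 in abh1 with mock, 148 and 200 in wild type with ABA, and 120 and 235 in wild type with mock. The arrays overlapped in every comparison between groups, and the averaged differences were -0.18 ± 0.31 for ABA and 0.23 ± 0.31 for abh1.

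Of the remaining CYP71B genes, CYP71B34 had 448 to 732 over the 8 arrays, CYP71B35 had 112 to 221 and CYP71B23 had 173 to 431. Their averaged ABA differences were -0.02 ± 0.23, 0.21 ± 0.29 and -0.36 ± 0.30, and their averaged abh1 differences were -0.20 ± 0.23, 0.04 ± 0.29 and -0.24 ± 0.30. CYP71B28, of chromosome 1, had 414 and 476 in abh1 with ABA, 568 and 613 in abh1 with mock, 360 and 915 in wild type with ABA, and 466 and 733 in wild type with mock. The wild-type ABA arrays were both its lowest and its highest, and its averaged differences were -0.21 ± 0.31 for ABA and -0.18 ± 0.31 for abh1.

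Most of the genes lie in rows of P450 genes, in the gene order of RefSeq TAIR10.1. One row on chromosome 3 runs from CYP71B16 (AT3G26150) to CYP71B37 (AT3G26330) and holds 24 genes, 18 of them with a P450 symbol. It contains 11 of the 22 members, 6 of which were tested. CYP71B24 (AT3G26230) and CYP71B26 (AT3G26290), the 2 genes called with the block, are both in it. Values of members beside them can be set next to theirs. CYP71B23 (AT3G26210) had -0.24 ± 0.30 for abh1, against -1.48 ± 0.29 for CYP71B24, and CYP71B34 (AT3G26300) had -0.02 ± 0.23 for ABA, against 0.77 ± 0.20 for CYP71B26. CYP71B25 (AT3G26270), the member between the pair, was below the limit for testing, with 1.02 ± 0.53 for abh1 and -0.07 ± 0.53 for ABA. These contrasts between genes were not tested. CYP71B27, CYP71B28 and CYP71B29 form a row of 4 P450 genes on chromosome 1, and CYP71B5 and CYP71B31 stand in a row of 4 genes elsewhere on chromosome 3. Genes of such rows can be near copies, and cross-hybridisation between them was not tested; each of the 22 probe sets carries the plain name ending that Affymetrix gives to sets designed for 1 transcript.

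**Figure D3:**
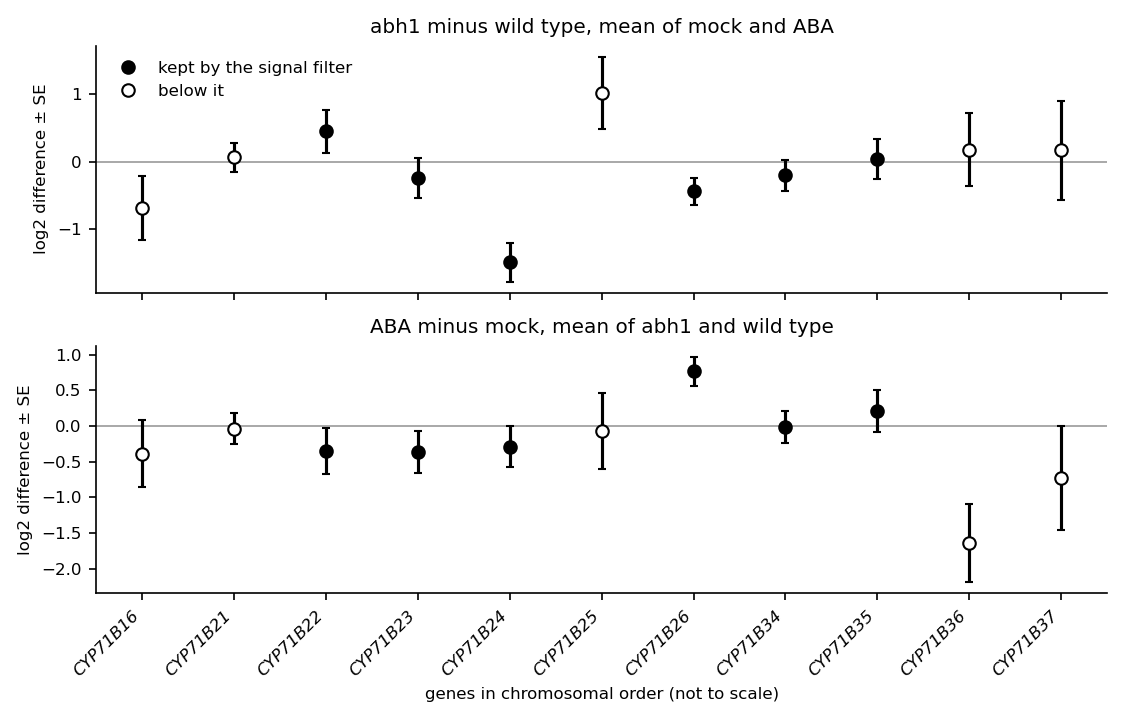
Log2 difference with its SE of the 11 members in the row of P450 genes on chromosome 3, in gene order and not to scale; filled points are the 6 tested genes, and open points are 5 genes with a mean signal below 115.4, from a fit without that limit. The genes lie on both sides of 0, and CYP71B24 stands lowest for abh1 (-1.48) while CYP71B26 stands highest for ABA (0.77).

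The P450 genes were also compared between the replicate numbers. Between arrays numbered 2 and those numbered 1, 9 of the 10 tested genes had a positive log2 difference, against 62.6% of all probe sets. The median of the 10 was 0.35 (0.04 to 0.38 over the alternatives), beside 0.18 for all. Limma called 0 of 10 at an adjusted p below 0.05, against 25.0% of all probe sets, and 4 of 10 had an unadjusted p below 0.05, against 44.4%. The lowest adjusted p was 0.0617, for CYP71B34, with a difference of 0.42 ± 0.14. The arrays of the 2 numbers did not overlap for 2 of 10 genes, CYP71B34 and CYP71B35, against 24.0% of all probe sets, and both were higher on number 2, as were 16.3% of all.

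By the median of the tested genes, the 2 wild-type ABA arrays stood furthest apart. All 10 tested P450 genes were higher on the array numbered 2 of this group, as were 61.5% of all probe sets, and their median log2 difference was 0.66, beside 0.27 for all. In the other groups the median of the 10 was 0.15 in abh1 with ABA, 0.12 in abh1 with mock and 0.36 in wild type with mock. CYP71B28 differed by 1.32 between the wild-type ABA arrays. CYP71B23 was higher on number 2 in wild type with ABA, by 0.71, but lower by 0.65 in abh1 with ABA, by 0.52 in abh1 with mock and by 0.71 in wild type with mock.

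The wild-type ABA arrays enter both calls made with the block. Without the wild-type ABA array numbered 2, the blocked fit called 4 of 10 P450 genes for ABA averaged over genotypes, namely CYP71B5, CYP71B6, CYP71B23 and CYP71B26, while 28.8% of all probe sets were called. In that fit 1 of 10, CYP71B24, was called for abh1 averaged over treatments, with 5.6% of all called. Leaving out any array, of this or another group, leaves the other array of its group alone, where it adds nothing to the estimate of the spread. Both calls ended when any 1 of the 6 arrays of the other groups was left out. In those fits the share of all probe sets called fell too. It was below the 2.31% for ABA and 0.513% for abh1 of the blocked fit to all arrays. Why the calls differed between these fits was not tested.

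**Figure D4:**
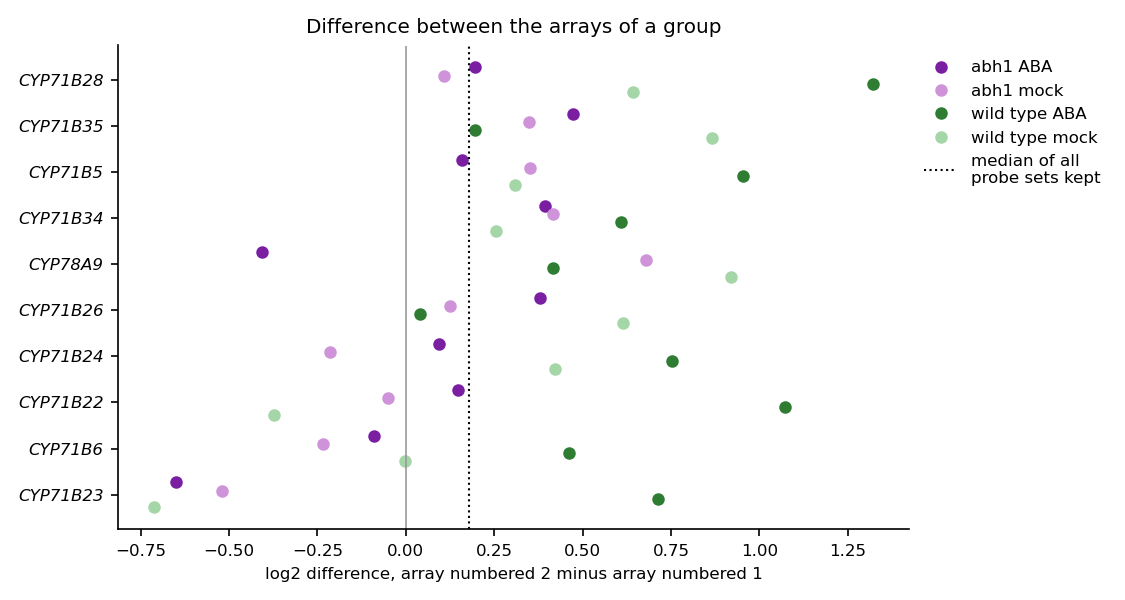
Log2 difference between the array numbered 2 and the array numbered 1 within each group, for the 10 tested P450 genes, with a dotted line at the median of all probe sets. All 10 points of wild type with ABA lie above 0, with a median of 0.66, and CYP71B23 lies below 0 in the other 3 groups.

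The other 12 genes had mean signals below 115.4. For 7 of them the signal was under the array's own 10th percentile on at least 1 array, and for CYP71B21 and CYP79A2 on all 8; no tested gene fell that low on any array. In fits with neither the limit nor the block, limma called 0 of 12 in each comparison of treatments or genotypes. At most 0.0044% of all 22746 probe sets were called there, and the lowest adjusted p of the 12 was 0.603. These genes were not tested between groups with the block. Between the replicate numbers, which are compared in the fit with the block, limma called 0 of 12, against 8.43% of all. At an unadjusted p below 0.05 stood 1 of 12 for ABA averaged over genotypes, against 6.77% of all, 1 of 12 for ABA in wild type, against 3.84%, and 2 of 12 between the replicate numbers, against 37.0%. In the other comparisons it was 0 of 12, against 1.17% to 4.10% of all. The adjusted p of 0.603 belonged to CYP71B36, with an averaged ABA difference of -1.64 ± 0.54. Its signals were 3.32 and 61.5 in abh1 with ABA, 71.0 and 54.6 in abh1 with mock, 7.64 and 15.1 in wild type with ABA, and 85.7 and 62.8 in wild type with mock. The ABA and mock arrays overlapped in abh1 and did not in wild type.

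CYP79A2, whose enzyme turns phenylalanine into its oxime in the synthesis of benzylglucosinolate, had signals of 6.49 to 7.12 on number 2 arrays and 2.55 to 3.28 on number 1 arrays. Its groups differed by less than this gap. The 10th percentile of all probe sets also differed by number, at 11.5 to 12.7 on number 2 arrays and 6.80 to 7.94 on number 1 arrays. CYP71B31, an enzyme of terpenoid oxidation in flowers, had 1.58 to 9.92. CYP84A4, which acts in arabidopyrone synthesis, had 179 and 74.6 in abh1 with ABA, 94.4 and 83.0 in abh1 with mock, 206 and 97.0 in wild type with ABA, and 88.6 and 30.3 in wild type with mock. In each of the 4 groups CYP84A4 was lower on the array numbered 2, and its averaged ABA difference was 0.82 ± 0.47.

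CYP51G2, a relative of the sterol 14-demethylase gene, and CYP71B27 are annotated as pseudogenes in RefSeq. CYP51G2 had 31.0 to 128 over the 8 arrays and CYP71B27 had 33.2 to 86.8, with averaged ABA differences of 0.25 ± 0.42 and 0.38 ± 0.34. CYP71B25, between CYP71B24 and CYP71B26, had 33.2 and 77.3 in abh1 with ABA, 39.4 and 60.9 in abh1 with mock, 8.88 and 32.3 in wild type with ABA, and 52.0 and 6.76 in wild type with mock. Its abh1 and wild-type arrays overlapped under mock and over both treatments together. Under ABA they did not overlap, though the lowest abh1 signal, 33.2, stood close to the highest wild-type signal, 32.3. CYP71B29 had 75.3 to 144 over the 8 arrays and CYP71B38 had 12.0 to 75.3. CYP71B16 had 1.34 to 44.9, CYP71B37 had 3.21 to 88.5 and CYP71B21 had 1.32 to 8.33.

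**Figure D5:**
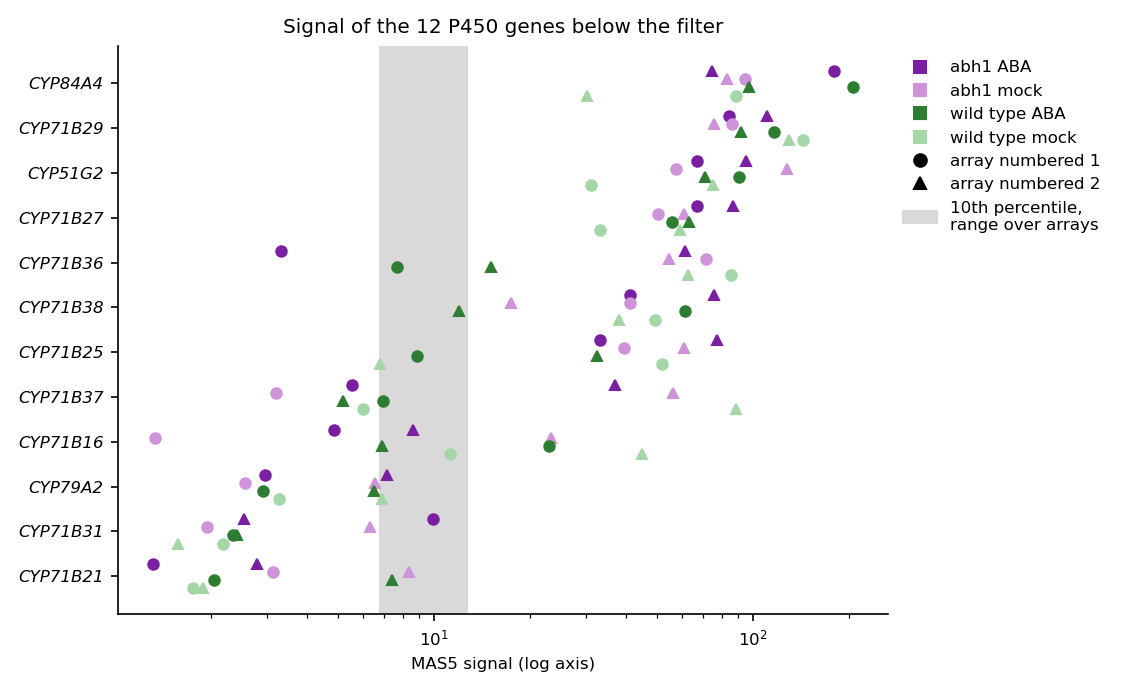
MAS5 signal (log axis) on each of the 8 arrays of the 12 P450 genes with a mean signal below 115.4, 1 row per gene; colours stand for the groups, marker shapes for arrays numbered 1 and 2, and the grey band for the range over arrays of the 10th percentile of all probe sets. CYP79A2 separates by array number, at 6.49 to 7.12 on number 2 and 2.55 to 3.28 on number 1. All 8 of its signals lie under the 10th percentile of their own array. CYP71B36 spreads from 3.32 to 61.5 within abh1 with ABA.

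Little of the wider P450 network could be read. Of 83 P450 genes placed in 12 pathway lists, 5 were measured: CYP71B6 for camalexin and indole defence, CYP79A2 for glucosinolates, CYP84A4 for phenylpropanoids, CYP71B31 for terpenoids and CYP78A9 for organ growth. Between groups, limma fits to all 8 arrays without the block called 0 of these 5, against at most 0.366% of all probe sets. With the block only CYP71B6 and CYP78A9 were tested between groups. In the blocked fits to all 8 arrays neither was called, against at most 4.03% of all. Between the replicate numbers 0 of the 5 were called, against 25.0% of all probe sets kept and 8.43% without the limit on signal. The 4 ABA-inactivating CYP707A genes and the 9 genes of electron donors were not measured by a named probe set, nor was any of the listed P450s of sterol, brassinosteroid, gibberellin, carotenoid, jasmonate or cutin metabolism.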

How the data were processed

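Expression was measured on 8 Affymetrix arrays. The deposited intensity values are MAS5 signals that the authors made with the Affymetrix software, per the series design text and the submitters' processing notes; the sources used here do not give its settings or detection calls. The values of each array had nearly equal 2% trimmed means, so they were taken as scaled by the authors and not normalised again.

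Gene symbols came from the platform annotation (13513 probe sets with 1 symbol, 503 with several, 8794 not listed), and locus codes and gene order from RefSeq TAIR10.1, which matched all 22 members. The 64 control probe sets were left out. Signals were transformed to log2(signal + 9.38), the offset being the 10th percentile of all values, and a mean signal of 115.4, the 40th percentile, was the lower limit for testing, which 13652 probe sets passed. Fold changes on this scale understate those of low signals. limma 3.58.1 in R 4.3.3 fitted 4 group means over all 8 arrays (4 residual degrees of freedom), with eBayes and an intensity trend; tests were two-sided, with Benjamini-Hochberg adjustment over all probe sets kept. The fits were tested on simulated data for the ABA difference in abh1 alone. The averaged differences, on which the calls with the block rest, were not simulated.

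The labels number the arrays 1 and 2. The residuals of arrays with the same number, taken about the group means, correlated at 0.394 to 0.714 (median 0.572) over the 6 pairs of groups, above 0.1, so the number was also fitted as a replicate block, leaving 3 residual degrees of freedom. Groups came from the sample labels. The number of arrays limits the precision.

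All 22 members are described, so the rule for named genes is membership. The members, gene lists and tests were chosen with earlier results of these data known. Alternatives covered the offset, the filter, quantile and median scaling, the block and leaving out each array.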

Additional observations from a re-analysis of the deposited data

How the results depend on the processing

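Without the replicate block, limma fits to all arrays called 0 P450 genes between groups under every offset, scaling or filter. This was among 10 tested genes, or 22 without a filter and 5 with the filter at the 60th percentile. The filter at the 60th percentile, a mean signal of 287.4, left out CYP71B24, with 170.5, so that alternative gives no value for it. At most 0.366% of all probe sets were called in these fits, so the count of 0 does not set the P450 genes apart. With the block, alone or with quantile normalisation or median centring, the count was 1 for the averaged ABA difference and 1 for the averaged abh1 difference, against 2.31%, 4.03% and 3.29% of all probe sets for ABA and 0.513%, 1.01% and 0.908% for abh1. The paired fit changed no other call. CYP71B26 with ABA then had a log2 difference of 0.77, 0.72 with quantile normalisation and 0.86 with median centring (limma adjusted p = 0.0445, 0.0285 and 0.0408). CYP71B24 in abh1 had -1.48, -1.53 and -1.50 (limma adjusted p = 0.0444, 0.0248 and 0.0180). Over all alternatives CYP71B26 ranged between 0.61 and 0.92, with adjusted p up to 0.804, and CYP71B24 between -1.67 and -1.17, with adjusted p up to 0.99985.

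Leaving out each array in turn with the block was chosen after seeing the data. CYP71B26 then ranged between 0.66 and 0.87 (limma adjusted p = 0.00405 to 0.289) and CYP71B24 between -1.65 and -1.32 (limma adjusted p = 0.0142 to 0.278), and each was called in 2 of 8 such fits, those without a wild-type ABA array. CYP71B26 had 0.85 without wild-type ABA array 2 and 0.68 without array 1, and CYP71B24 had -1.32 and -1.65. Counts called in these 8 fits ranged between 0 and 4 for ABA in wild type and for the averaged ABA difference, and between 0 and 1 for ABA in abh1, abh1 under mock and the averaged abh1 difference. Without wild-type ABA array 2 or 1, the fits with a count of 1 called 6.86% of all in both for ABA in abh1, 1.88% and 1.68% for abh1 under mock, and 5.6% and 2.12% for the averaged abh1 difference. The averaged ABA difference had a count of 1 without array 1, against 3.11% of all. The count of 4 for ABA came without wild-type ABA array 2, where 15.6% of all probe sets were called in wild type and 28.8% in the average. Between replicate numbers, 1 of 10 genes, CYP71B23, was called without wild-type ABA array 2 or without array 1, where 22.6% and 22.7% of all were called, against 0 of 10 with all arrays. The ABA difference of CYP71B24 in abh1 reversed to 0.066 with the block and without abh1 mock array 1, against -0.25 with all arrays, and the cause was not tested. Low signal limits most the 7 genes with an array under its 10th percentile, since the offset of 9.38 is of that size.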
